A study of Mus musculus with 2 samples.

Results

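The TFE3-folliculin axis is described here through 10 genes, taken by symbol from the 18888 genes of the deposited comparison of PB and PB-TERRA 46C mESCs. They are the MiT factors Tfe3, Tfeb and Mitf, the folliculin complex genes Flcn, Fnip1 and Fnip2, and the lysosomal mTORC1 genes Lamtor1, Rraga, Mtor and Tsc2. All 10 were in the table, and all 10 had at least 1 FPKM (mapped fragments scaled for gene length and library size) in 1 library or both, as did 12263 genes in all. PB mESCs are 46C mouse embryonic stem cells that carry the empty PiggyBac vector, and PB-TERRA mESCs carry the same vector with telomeric repeats, from which polyadenylated TERRA, a telomeric noncoding RNA, is expressed. Both lines were at passages 21 to 24 and were grown on gelatin in mouse ESC medium. RNA of each was sequenced as 1 library, so the spread between cultures is unknown, no test was possible, and every difference below is one between 2 libraries.

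Mouse embryonic stem cells leave the naive state only when several brakes on this exit are released. TFE3, a basic helix-loop-helix leucine zipper factor, is one of these brakes, since in the nucleus it binds E-boxes of genes such as Esrrb and keeps the cells undifferentiated. Folliculin, with its partners FNIP1 and FNIP2, acts on the Rag GTPases at the lysosome, where TFE3 is phosphorylated by mTORC1 and then held in the cytoplasm. The axis is therefore known to work largely through protein phosphorylation and location, neither of which an RNA table measures. In bulk RNA, fewer cells that express a gene and less RNA per cell cannot be told apart.

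From the steps of low FPKM values, library totals of 24590000 (PB) and 24730000 reads (PB-TERRA) were recovered. The reads of the 10 genes, estimated from FPKM, gene length and these totals, ran from 207 to 5383 per gene and library. Exact binomial 95% intervals of the ratio of these reads (Clopper-Pearson) are called counting intervals below, and they cover counting error only, not the spread between cultures. The 6 mESC markers Pou5f1, Nanog, Sox2, Zfp42, Esrrb and Klf4 were all present, at 49.7 FPKM or more in each library. The counting interval lay above 0 for 3 of them, Pou5f1 (the most abundant, log2 ratio 0.05), Sox2 (0.11) and Esrrb (the highest, 0.14), and below 0 for 1, Nanog (the lowest, -0.10), beside 18.1% above and 17.5% below over all genes past the filter, and 27.0% and 21.5% of those with 1000 reads or more in each library. Of 5 melanocyte genes, looked at because Mitf is a regulator of that lineage, 4 were analysed here, with a summed level of 4.04 FPKM in PB and 2.70 FPKM in PB-TERRA, and Mlana (0.81 FPKM in PB) and Tyrp1 were each listed at 0.01 in 1 library. Pmel, the most abundant of them, had 2.96 and 2.39 FPKM, and Tyr had 0.26 and 0.28 FPKM. The summed level of 5 fibroblast genes was 19.4 FPKM in PB and 23.3 FPKM in PB-TERRA, with Dcn the lowest at 0.36 to 0.38 FPKM and 2 of the 5 counting intervals, those of Col1a1 (log2 ratio 0.60) and Col1a2 (0.53), above 0. The intervals of Pdgfrb (0.15) and Thy1 (-0.13) included 0. Whether these markers have a part in the differences below was not tested.

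MiT factors bind the E-box CACGTG, which reads the same on both strands. Windows around it are shown for some promoters of axis and lysosomal genes. All 10 genes matched the RefSeq promoter table of GRCm38.p6, with 15 promoters of 300 bases (250 before the transcript start and 50 after it). The letters CACGTG lay in the promoters of 2 of the 10 genes, Fnip1 and Lamtor1, against 12.3% of the 9473 matched genes past the filter and 7.15% of all 32851 promoters. Of the 3 MiT factors themselves, none of the 8 promoters in this table held them. The windows below are from RefSeq, 5′ to 3′ on the strand of the gene, with the E-box in capitals. Fnip1 (chr11:54438095-54438118, + strand) and Lamtor1 (chr7:101905760-101905783, + strand) are followed for comparison by the Rag GTPase gene Rragc (chr4:123917312-123917335, + strand), the V-ATPase gene Atp6v0d1 (chr8:105566053-105566076, - strand) and the lysosomal membrane gene Lamp1 (chr8:13159124-13159147, + strand).
Fnip1: gtttgctgcCACGTGatacggctc
Lamtor1: ccttcctatCACGTGccgcgggtc
Rragc: gattccgggCACGTGatagtacca
Atp6v0d1: tactgcggtCACGTGagacgcggt
Lamp1: gccgactggCACGTGaccacatca
The E-box began 75 bases before the transcript start in Fnip1 and 68 bases before it in Lamtor1. In Lamp1, 4 E-boxes lay within the promoter, and the 1 shown began 28 bases before the start. Other genes of the pathway, Rragb and Lamtor4 among them, also held CACGTG and are not shown. The related letters TCATGTG, searched on both strands as a form of the M-box that MITF binds, lay in the promoter of 1 of the 10 genes, Lamtor1, against 2.38% of the matched genes past the filter and 3.77% of all promoters. No run of letters matches both motifs. A match of letters is a description of the window and does not show binding.

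The 10 genes differed little between the libraries. None of them (0 of 10) had an absolute log2 ratio of at least 1, which 0.913% of the 12263 genes past the filter had, or of at least 0.25, which 17.6% had. Of the 7859 genes of 5 to 100 FPKM, the range of 9 of the 10 genes, 10.5% reached 0.25. Log2 ratios are of FPKM + 0.1, PB-TERRA over PB, and ran from -0.12 for Fnip2 to 0.03 for Fnip1 with a median of -0.07, beside a median of -0.0044 over all genes past the filter. Lower in PB-TERRA were 7 of the 10 genes and higher were 3, where 50.9% of all genes past the filter were lower. For 5 genes, Tfe3, Fnip2, Rraga, Mtor and Tsc2, the counting interval lay below 0, as it did for 17.5% of all genes. It lay above 0 for 0 of the 10, against 18.1% of all genes, and it included 0 for the other 5. Deeper counts give narrower intervals: of the 5038 genes that had 1000 reads or more in each library, 8 of the 10 genes included, 21.5% had an interval below 0 and 27.0% above 0.

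**Figure D1:**
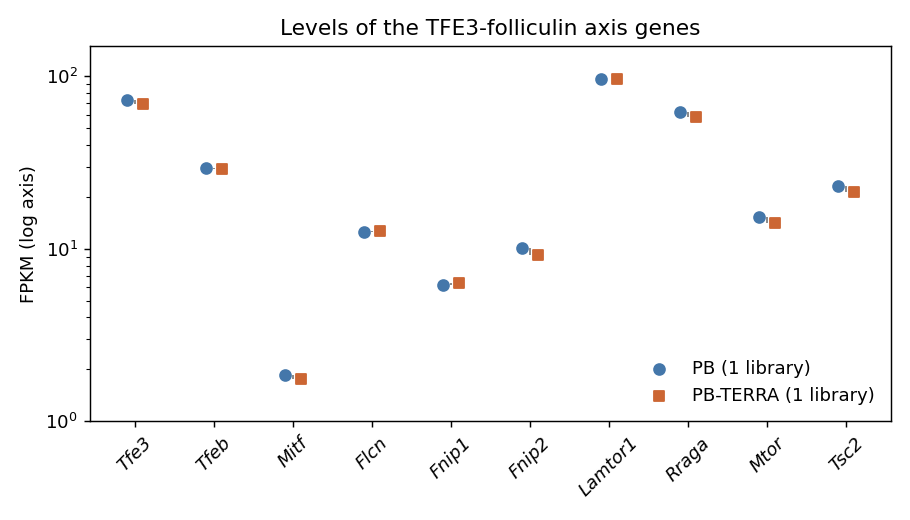
FPKM (log axis) of the 10 genes in the PB library (circles) and the PB-TERRA library (squares), 1 library each, so no error bars are drawn. The pair of points of each gene lie close together, while the genes span from 1.77 FPKM for Mitf to 97.05 FPKM for Lamtor1.

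**Figure D2:**
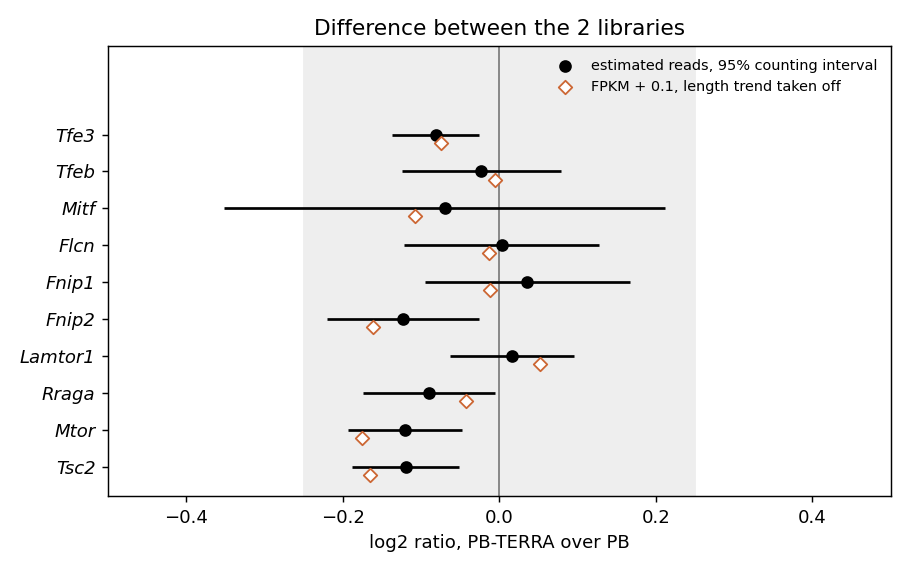
Log2 ratio of PB-TERRA over PB for the 10 genes, from estimated reads with the 95% counting interval (black, counting error only) and from FPKM + 0.1 with the length trend taken off (open diamonds); the shaded band runs from -0.25 to 0.25. The intervals of Tfe3, Fnip2, Rraga, Mtor and Tsc2 lie below 0, and that of Mitf, from -0.35 to 0.21, is the widest.

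Of the MiT factors, Tfe3 was the most abundant. Its level was 72.90 FPKM in PB and 68.92 FPKM in PB-TERRA, which are 5383 and 5118 estimated reads. The log2 ratio was -0.08 (counting interval -0.14 to -0.03), a difference of -5.46% in FPKM. Tfe3 lay above 90.4% of the genes past the filter by mean level, while 39.7% of them had a smaller absolute log2 ratio.

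Tfeb, the paralog best known as a regulator of lysosome formation, had 29.59 FPKM in PB and 29.14 FPKM in PB-TERRA. With 1593 and 1577 estimated reads its log2 ratio was -0.02, and the counting interval (-0.12 to 0.08) included 0. Mitf, the melanocyte member of the family, was low, at 1.86 and 1.77 FPKM from 216 and 207 estimated reads (log2 ratio -0.07, counting interval -0.35 to 0.21). The interval of Mitf is wide at these read counts and gives no direction for a difference. Tfec, the fourth MiT gene and not among the 10, did not pass the filter, with 0.19 FPKM in PB and 0.34 FPKM in PB-TERRA from 8 and 14 estimated reads.

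Per length, the level of Tfe3 was 2.46 times that of Tfeb and 39.2 times that of Mitf in PB, and 2.37 and 38.9 times in PB-TERRA. The order Tfe3, Tfeb, Mitf was thus the same in both libraries. Tfe3 made up 69.9% of the summed FPKM of these genes in PB and 69.0% in PB-TERRA. Summed over them, PB had 7192 reads against 6902 in PB-TERRA, a log2 ratio of -0.07 (counting interval -0.12 to -0.02). No 50-base stretch of their GENCODE M21 transcripts occurs in a transcript of another gene (0%).

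The folliculin complex genes were all expressed at moderate levels. Flcn, which encodes folliculin, had 12.59 FPKM in PB and 12.62 FPKM in PB-TERRA, from 1040 and 1048 estimated reads. Its log2 ratio was 0.0034 (counting interval -0.12 to 0.13), and only 1.81% of the genes past the filter had a smaller absolute log2 ratio.

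The folliculin-interacting gene Fnip1 had 6.18 and 6.33 FPKM from 937 and 966 estimated reads (log2 ratio 0.03, counting interval -0.10 to 0.17). Its paralog Fnip2 had 10.10 FPKM in PB and 9.27 FPKM in PB-TERRA, from 1791 and 1654 estimated reads. The log2 ratio of Fnip2 was -0.12 (counting interval -0.22 to -0.03), the lowest of the 10 genes. Per length, Fnip2 was 1.63 times the level of Fnip1 in PB and 1.46 times in PB-TERRA. Summed over Flcn, Fnip1 and Fnip2, PB had 3768 reads against 3668 in PB-TERRA, a log2 ratio of -0.05 (counting interval -0.11 to 0.02). This sum was not corrected for length, and with the length trend taken off all 3 genes were lower.

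The lysosomal genes Lamtor1 and Rraga were among the most abundant of the 10. Lamtor1, the Ragulator subunit that anchors the Rag GTPases to the lysosomal membrane, had 95.95 FPKM in PB and 97.05 FPKM in PB-TERRA. From 2567 and 2611 estimated reads its log2 ratio was 0.02 (counting interval -0.06 to 0.10). Rraga, which encodes the GTPase RagA, had 62.07 and 58.31 FPKM from 2351 and 2221 estimated reads. The log2 ratio of Rraga was -0.09, and the upper end of its counting interval (-0.17 to -0.0060) was close to 0.

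Mtor and Tsc2 were lower in PB-TERRA by a like amount. Mtor, the kinase subunit of mTORC1 and mTORC2, had 15.26 FPKM in PB and 14.04 FPKM in PB-TERRA, from 3189 and 2951 estimated reads (log2 ratio -0.12, counting interval -0.19 to -0.05). Tsc2, which encodes tuberin, the GTPase-activating subunit of the TSC complex that restrains mTORC1, had 23.17 and 21.32 FPKM from 3588 and 3321 estimated reads (log2 ratio -0.12, counting interval -0.19 to -0.05). The FPKM differences were -7.99% for Mtor and -7.98% for Tsc2, so that the ratio of Tsc2 to Mtor was 1.52 in each library.

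**Figure D3:**
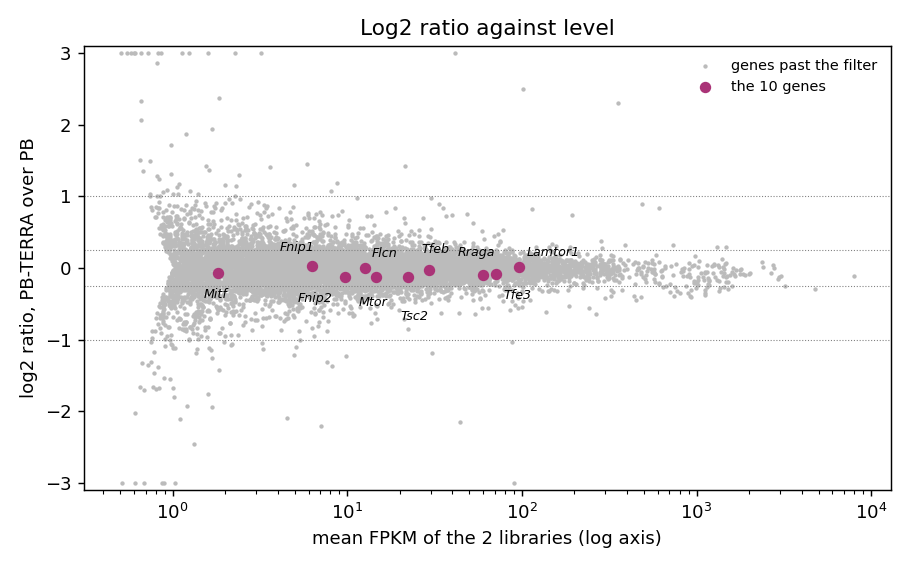
Log2 ratio of PB-TERRA over PB (FPKM + 0.1) against the mean FPKM of the 2 libraries (log axis) for the 12263 genes past the filter (grey, values beyond 3 drawn at 3 or -3) and the 10 genes (purple), with dotted lines at -1, -0.25, 0.25 and 1. The 10 genes lie inside the band from -0.25 to 0.25.

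Over all genes the log2 ratio tended to be higher in longer genes, and the 10 genes differ in length from 1201 bases for Lamtor1 to 8612 bases for Mtor. With the genes past the filter cut into 10 bins by length, the bin of shortest genes had a median of -0.06 and that of the longest 0.05. Mtor (8612 bases), Fnip2 (7326) and Tsc2 (6411), which belong to the longest bin, lay below genes of their own length by more than below 0: with the median of genes of like length taken off, the log2 ratio was -0.18 for Mtor, -0.16 for Tsc2 and -0.16 for Fnip2. For the short Rraga it was -0.04, and its counting interval then included 0 (-0.13 to 0.04). Flcn and Fnip1 changed sign, both to -0.01, so 9 of the 10 genes were then lower and Lamtor1 (0.05) was higher.

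**Figure D4:**
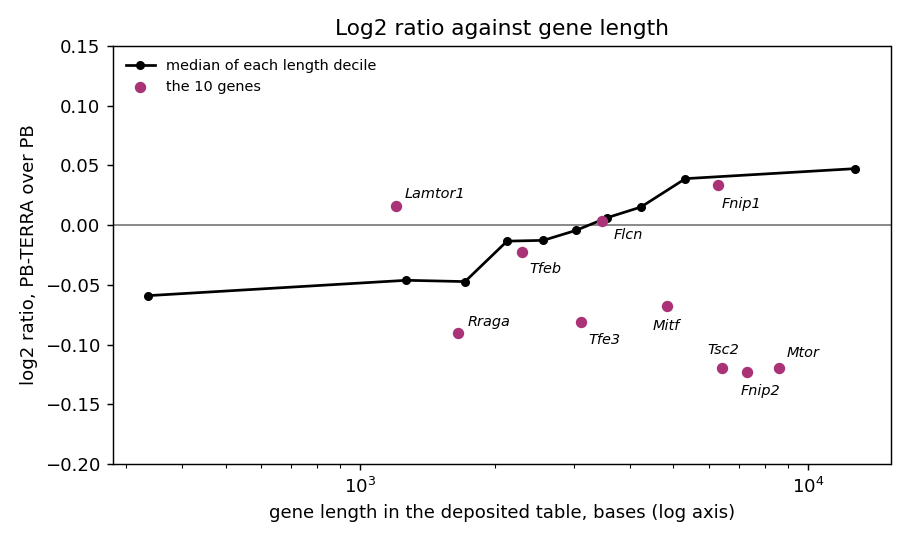
Log2 ratio of PB-TERRA over PB (FPKM + 0.1) against gene length in bases (log axis): the median of each length decile of the genes past the filter (black line, drawn at the geometric middle of the decile) and the 10 genes (purple). Mtor, Tsc2 and Fnip2 lie near -0.12 where the decile medians are near 0.05, and Flcn lies on the line.

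The reads of Tsc2 and Lamtor1 carry a limit of their own. In the GENCODE M21 annotation of GRCm38, 7.20% of the exonic bases of Tsc2 (chr17:24595816-24632630, - strand) overlap exons of Pkd1 on the opposite strand, and 18.7% of those of Lamtor1 (chr7:101905904-101926675, + strand) overlap Lrrc51. No source used here says that strand was kept, so in these bases reads of the partners cannot be told apart. Pkd1 had 4.07 FPKM in PB and 4.51 FPKM in PB-TERRA, and Lrrc51 had 1.5 and 1.62 FPKM, both below the level of their partner and higher in PB-TERRA. In the transcripts of GENCODE M21, 8.14% of the 50-base stretches of Tsc2 and 25.6% of those of Lamtor1 recur in a transcript of another gene, against 0.750% for Fnip2 and 0% for each of the other members. Exons of the other 8 genes overlap no exon of another gene in that annotation (0% of their exonic bases).

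The gene ontology terms that the table lists tie only some of the 10 genes together. Positive regulation of transcription from RNA polymerase II promoter was listed for 4, namely Flcn, Tfe3, Tfeb and Tsc2, and for 0.942% of the table. Response to amino acid was listed for Lamtor1 and Rraga, and regulation of cell size for Mtor and Tsc2. The cellular component term lytic vacuole was listed for Mtor and Rraga, and for 0.731% of the table. A cellular component term with the word lysosome was listed for 2 of the 10, Lamtor1 and Tsc2, and for 0.826% of the table. Of the 134 genes past the filter with such a term, 60 were higher and 73 lower in PB-TERRA, with a median log2 ratio of -0.01.

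The wider amino acid sensing pathway was read from lists by role. Over 9 lists from MiT factors to RHEB, 51 genes passed the filter, the 10 genes above among them. In PB-TERRA 34 were lower and 17 higher (median of the log2 ratios -0.07), beside 50.9% lower over all genes past the filter (median -0.0044). The counting interval lay below 0 for 12 of the 51 and above 0 for 0, beside 17.5% and 18.1% of all genes past the filter. With the length trend taken off, 36 were lower and 15 higher, and the interval lay below 0 for 11 and above 0 for 1, Rheb. An absolute log2 ratio of 0.25 was reached by 3 of the 51, beside 17.6% of all genes past the filter and 10.5% of those of 5 to 100 FPKM: the RagB gene Rragb, the KICSTOR gene Kptn and the arginine sensor gene Gatsl3 (Castor1). Kptn was under it with the length trend taken off (-0.24). All differences in these lists are between 2 libraries and have no replicate check.

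All 5 Ragulator genes passed the filter, and 4 were lower (median -0.11), beside 50.9% of all genes past the filter. With the length trend taken off, 3 were lower and 2 higher (median -0.05). Lamtor2 was the lowest, at 44.24 and 39.06 FPKM (log2 ratio -0.18, counting interval -0.37 to 0.0040). Lamtor5, at 37.16 and 33.19 FPKM (-0.16), was the 1 with an interval below 0, which included 0 with the length trend taken off (-0.26 to 0.05). Lamtor4 had a log2 ratio of -0.11 and Lamtor3 of -0.02. All 4 Rag GTPase genes were lower (median -0.09). Rragb had 13.06 and 10.77 FPKM (log2 ratio -0.28, counting interval -0.44 to -0.12), Rragc 19.97 and 18.65 FPKM (-0.10), and Rragd, a known target of the MiT factors, 11.11 and 10.98 FPKM (-0.02).

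GATOR1, the GTPase-activating complex that turns RagA off, and its tether KICSTOR had 6 of 7 genes lower (median -0.08), with 0 counting intervals on either side of 0, where over all genes past the filter 50.9% were lower, 17.5% had an interval below 0 and 18.1% above. The most abundant was Depdc5 at 12.75 and 12.73 FPKM, and the lowest was Kptn, at 5.75 and 4.71 FPKM (log2 ratio -0.28, counting interval -0.58 to 0.0075). Of the 5 genes of GATOR2, which opposes GATOR1, 4 were lower (median -0.07). Sec13 had a log2 ratio of 0.0014, Seh1l of -0.07 (interval below 0), Wdr59 of -0.04, Wdr24 of -0.12 and Mios of -0.12. Among 7 genes for amino acid and methionine sensing, 6 were higher (median 0.07), beside 48.6% of all genes past the filter. Of the 7 counting intervals 0 lay above 0 and 1 below, that of Gatsl3. With the length trend taken off, 5 of the 7 genes were higher and 2 lower. The leucine sensor gene Sesn2 was the most abundant at 40.40 and 41.76 FPKM. Gatsl2 (Castor2) was the highest with a log2 ratio of 0.18, and Gatsl3 the lowest, at 20.46 and 14.96 FPKM (log2 ratio -0.45, counting interval -0.61 to -0.29).

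Of 12 genes of mTORC1, mTORC2 and their assembly factors, 7 were lower and 5 higher (median -0.06). Akt1s1, the PRAS40 gene, was the most abundant at 25.46 and 23.70 FPKM. The log2 ratios ran from -0.22 for the assembly factor gene Telo2 (9.54 and 8.17 FPKM, counting interval -0.36 to -0.09) to 0.11 for the inhibitor gene Deptor (4.38 and 4.73 FPKM, interval including 0). Mtor, Telo2 and Tti1 were the 3 with an interval below 0, beside 17.5% of all genes past the filter, and Rptor joined them with the length trend taken off (-0.17 to -0.0080). In the TSC complex, Tsc1, which encodes hamartin, the partner of tuberin, was lower beside Tsc2, at 6.93 and 6.21 FPKM (log2 ratio -0.16, counting interval -0.27 to -0.04). The third subunit gene Tbc1d7 had a log2 ratio of -0.03. Rheb, the GTPase that the complex acts on, had 62.93 and 65.66 FPKM (log2 ratio 0.06, interval including 0 but above it with the length trend taken off), and Rhebl1 had -0.04.

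Among 10 genes of mTORC1 substrates, 6 were higher and 4 lower (median 0.05), with 3 counting intervals above 0 and 2 below, beside 18.1% above and 17.5% below over all genes past the filter. The translation repressor gene Eif4ebp1 was the most abundant at 289.66 and 274.93 FPKM (log2 ratio -0.08, interval below 0, but including 0 with the length trend taken off). With that trend off, the interval of Ulk1 lay below 0 (-0.13 to -0.02), so 2 of the 10 still lay below. Grb10 was the highest, at 56.19 and 61.61 FPKM (0.13, interval above 0), and the autophagy kinase gene Ulk2 the lowest, at 1.87 and 1.60 FPKM (-0.21, interval including 0).

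Lysosomal and autophagy genes, the known targets of the MiT factors through CLEAR elements, are given next. Of 34 lysosomal genes 33 passed the filter, 20 lower and 13 higher (median -0.03), with 6 counting intervals below 0 and 5 above, shares near the 17.5% and 18.1% of all genes past the filter. With the length trend taken off, 4 lay below 0 and 6 above. Lamp1, the most abundant, had 182.45 and 180.53 FPKM (log2 ratio -0.02, counting interval -0.06 to 0.03). Lamp2, the other major membrane glycoprotein gene of the lysosome, was the highest, at 10.09 and 12.15 FPKM (log2 ratio 0.27, counting interval 0.12 to 0.41). Naglu, which encodes a heparan sulfate hydrolase, was the lowest, at 1.52 and 1.16 FPKM (log2 ratio -0.36), from 89 and 69 estimated reads with an interval that included 0. Of the 26 lysosomal genes that matched the promoter table, 14 held CACGTG, against 12.3% of the matched genes past the filter; the list is of genes known for this element. Of the 11 autophagy genes that matched, 1 held it.

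V-ATPase genes, whose product acidifies the lysosome and takes part in amino acid sensing with Ragulator, were lower in 11 and higher in 6 of 17 (median -0.03), with 4 counting intervals below 0 and 2 above, beside 17.5% and 18.1% of all genes past the filter. Atp6v1f was the most abundant, at 122.39 and 130.04 FPKM (log2 ratio 0.09, interval including 0 but above it with the length trend taken off). Atp6v0d1 was the lowest, at 59.80 and 51.83 FPKM (log2 ratio -0.21, counting interval -0.30 to -0.12), and Atp6v0e2 the highest, at 6.47 and 8.02 FPKM (0.31, counting interval 0.08 to 0.54). With the length trend taken off, 8 were lower and 9 higher, the median turned to 0.0098, and 2 intervals lay below 0 and 3 above. Autophagy genes were lower in 11 of 14 (median -0.05), yet 0 counting intervals lay below 0 and 1 above, that of Gabarapl2 (63.99 and 73.94 FPKM, log2 ratio 0.21), beside 17.5% below and 18.1% above over all genes. Sqstm1, the gene of the autophagy receptor p62, was the most abundant at 99.89 and 95.91 FPKM (-0.06), and Atg9a the lowest (-0.13).

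Esrrb, the nuclear receptor gene through which TFE3 is known to hold mESCs in self-renewal, had 127.58 FPKM in PB and 140.84 FPKM in PB-TERRA. From 12878 and 14298 estimated reads, its log2 ratio was 0.14 (counting interval 0.11 to 0.18). Tfe3 (-0.08) and Esrrb thus differed between the libraries in opposite directions. None of the 2 Esrrb promoters in the RefSeq table held CACGTG.

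**Figure D5:**
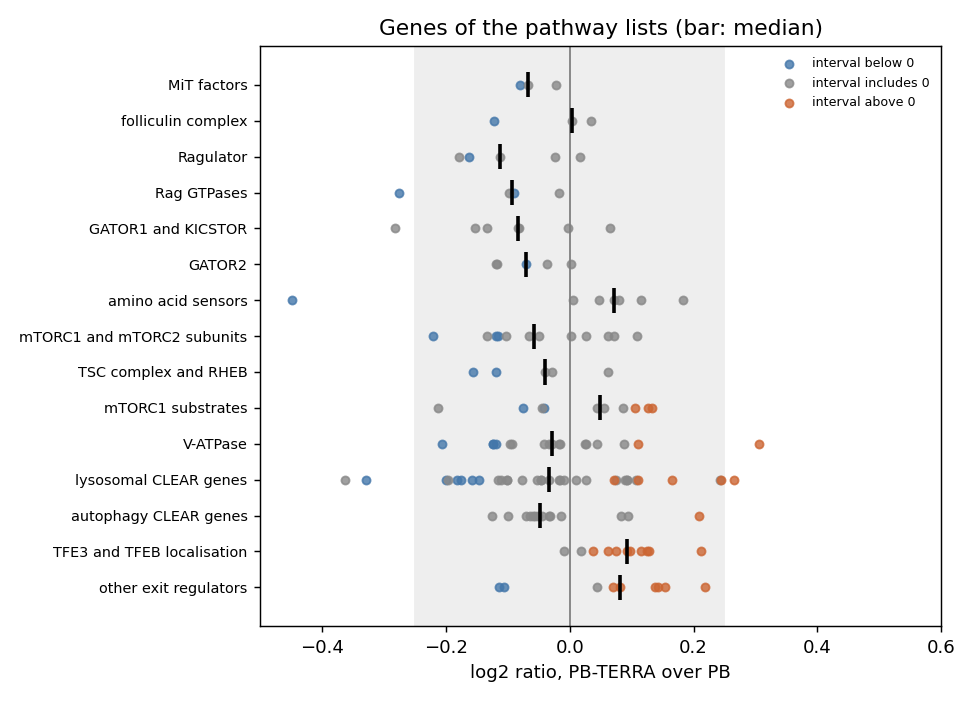
Log2 ratio of PB-TERRA over PB (FPKM + 0.1) of each gene past the filter in the pathway lists, coloured by whether its 95% counting interval lies below 0 (blue), includes 0 (grey) or lies above 0 (orange), with a black bar at the median of the list and a shaded band from -0.25 to 0.25. The medians from MiT factors to RHEB run from -0.11 for Ragulator to 0.07 for the amino acid sensors; with the length trend taken off, the lowest is that of GATOR2 (-0.09), and Ragulator has -0.05.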

How the data were processed

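Total RNA of 46C mESCs, 1 library each of PB and PB-TERRA, was prepared with a TruSeq kit and sequenced on a BGISEQ-500. The authors deposited 1 table with 2 expression columns, read as FPKM from their values because the header names no unit, rounded to 2 decimals with a floor of 0.01. The submitters' processing notes name HISAT, Cufflinks and the build mm9, without roles or versions, and the annotation is not given in the sources used here. The deposited log2 fold changes, p-values and adjusted p-values (a score that was not limited to 1) are the authors' own comparison, and these 3 columns were not used.

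Log2 ratios are of FPKM + 0.1, and genes with at least 1 FPKM in 1 library were kept. Library totals, and 113 bases taken off every gene length, were fitted so that short, low genes (under 6 reads) came out at whole reads. Of 476 such genes in PB 84.0%, and of 523 in PB-TERRA 87.6%, lay within 0.2 reads of a whole number. No p-value is given, since 1 library per condition allows no test. The length trend is the median log2 ratio in 50 bins. The scripts were tested on simulated data.

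The members and lists were chosen with earlier results of these data known. Named are the 10 genes, Esrrb, every gene of lists of 5 or fewer, and of other lists the most abundant, the highest and the lowest gene. The highest gene of 1 list is not reported here. For Dcn and the melanocyte genes, which mostly did not pass the filter, levels are given without ratios. Genes named beside these were chosen after their values were seen. Bmt2 was matched under its other symbol B630005N14Rik. Calculations ran in Python 3.11.15 (scipy 1.17.1, pandas 2.3.3, numpy 2.4.6) and plots were drawn with matplotlib 3.10.9.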

Additional observations from a re-analysis of the deposited data

How the results depend on the processing

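The log2 ratios of the 10 genes moved by less than their counting error under another pseudocount (0.01 or 1 FPKM), centring, the length trend taken off, or estimated reads, and those whose counting interval lay below 0 kept their sign. Flcn and Fnip1 changed sign with the length trend taken off, both to -0.01. Of the 10 genes, 5 had a counting interval below 0, 4 with the length trend taken off (without Rraga) and 3 with a 99% interval (Tfe3, Mtor and Tsc2). The number of genes past 1 on the log2 scale was 112, and it was 45 with a pseudocount of 1 FPKM, 513 with no filter and 17 with a mean of at least 5 FPKM. The number past 0.25 was 2160, and it was 5537 with no filter and 897 with a mean of at least 5 FPKM. The list medians that changed sign with the length trend taken off were those of the folliculin complex, to -0.01, and of the V-ATPase, to 0.0098. Several others came closer to 0, among them those of Ragulator (-0.11 to -0.05), the TSC complex and RHEB (-0.04 to -0.0041) and the lysosomal genes (-0.03 to -0.02). The median of the 10 genes also did (-0.07 to -0.06), while that of GATOR2 moved away from 0 (-0.07 to -0.09). No paired analysis was possible because each condition has 1 library, and for the same reason no library could be left out. With 1 library per condition the spread between cultures is unknown, so a counting interval on 1 side of 0 says only that these 2 libraries differ.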

Other observations

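Genes known to act on where TFE3 and TFEB lie in the cell were mostly higher in PB-TERRA. Of 11 such genes 10 were higher and 1 was lower, with a median log2 ratio of 0.09. Over all genes past the filter 48.6% were higher. For 9 of the 11 the counting interval lay above 0, beside 18.1% of all genes past the filter. The share was 27.0% among genes with 1000 reads or more in each library. Deeper counts narrow the interval: that of Ywhaz (17597 and 18159 estimated reads) lay above 0 at a log2 ratio of 0.04. With the length trend taken off, 9 of the 11 were higher, 1 was lower and Map4k3 was at 0, and 9 intervals lay above 0. Of the 11, 6 encode 14-3-3 proteins, which hold phosphorylated TFE3 and TFEB in the cytoplasm. The most abundant, Ywhae, had 593.12 FPKM in PB and 632.14 FPKM in PB-TERRA (log2 ratio 0.09, counting interval 0.07 to 0.11). The nuclear export receptor gene Xpo1 had 104.51 and 114.01 FPKM (0.13). Ppp3ca, a catalytic subunit gene of calcineurin, which dephosphorylates TFEB, was the highest at 4.75 and 5.52 FPKM (log2 ratio 0.21, counting interval 0.05 to 0.38), while Ppp3cb, another catalytic subunit gene, was the lowest with -0.0097 (interval including 0). None of the 11 reached an absolute log2 ratio of 0.25 (0 genes).

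Of 9 genes with a part in the exit from pluripotency, Esrrb included, 7 were higher and 2 lower (median log2 ratio 0.08). Over all genes past the filter 48.6% were higher. The counting interval lay above 0 for 6 of the 9 and below 0 for 2, beside 18.1% and 17.5% of all genes past the filter. The shares were 27.0% and 21.5% among genes with 1000 reads or more in each library. With the length trend taken off, 5 intervals of the 9 genes lay above 0 and 2 below. Esrrb was the most abundant. Fgf4, the autocrine signal that starts the exit, was the highest, at 31.89 and 37.13 FPKM (log2 ratio 0.22, counting interval 0.14 to 0.30). Its receptor gene Fgfr1 was the lowest, at 30.83 and 28.46 FPKM (-0.12, counting interval -0.18 to -0.05). Tcf7l1, the repressor that CHIR is known to relieve through beta-catenin, had 65.29 and 60.67 FPKM (-0.11, interval below 0). These differences have no replicate check.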
